A study of Mus musculus with 24 samples.

Results

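A set of 10 genes of Notch signalling was followed in 24 RNA sequencing libraries of mouse amniotic cells, the endothelial-like cells converted from them, and adult endothelial cells (ECs). They were the 4 receptors Notch1, Notch2, Notch3 and Notch4, the 3 ligands Jag1, Jag2 and Dll4, and the 3 targets Hey1, Hey2 and Hes1. They were taken by name, and all 10 were found among the 22282 genes of the files, each as a single RefSeq transcript. Each of the 8 groups had 3 libraries. The labels give the strain C57BL/6J for all of them, and the methods add that mothers of the amniotic cells were either wild type or carried a tdTomato reporter. Amniotic cells (MACs) were pooled from the amniotic fluid of mixed-sex embryos at E11.5 to E13.5 and grown in AmnioMAX medium before any conversion. RACVECs were MACs given lentiviruses for the Ets factors Etv2, Erg and Fli1 and kept in EC medium with a TGFβ inhibitor. VEGF-A was added to this medium during the conversion. Akt-MACs and Akt-RACVECs also carried constitutively active, myristoylated Akt1. Sox17-RACVECs were RACVECs given a Sox17 lentivirus and selected with puromycin. Akt-LECs and Akt-liver ECs were adult lung and liver ECs, cultured with myristoylated Akt1. LSECs were liver sinusoidal ECs sorted straight from the liver, with no culture and no Akt1. All Ets and Akt1 transgenes were driven by the PGK promoter, which is not specific to a cell type. The age of the adult mice is not given in the sources used here.

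Values are FPKM, fragments per kilobase of transcript scaled to library size by the authors. An FPKM of 0 is written as listed at 0, since the depth of the libraries is unknown. The transduced genes were read first as a check of the labels. Etv2 was listed at 0 in all libraries of the 5 groups not given it, and ranged from 301 to 859.9 in RACVECs and from 127 to 572 in Akt-RACVECs. In the Sox17-RACVECs it was 458, 0 and 378 (libraries 1, 2 and 3), so the library labelled Sox17-RACVEC 2 went against its label for Etv2. In that library Erg had an FPKM of 387, against 4.49 and 0 in the other two. Erg was also low in RACVECs, at 3.91, 13.8 and 0.90, against 395 to 1002 in Akt-RACVECs, although both groups were given it. Fli1 was 178 to 257 in RACVECs and 0 to 1.61 in MACs. In Akt-MACs, which were not given it, Fli1 was 2.36, 30.2 and 84.4. Limma called it higher there than in MACs, as it did 388 of 14964 genes. Erg was listed at 0 in all Akt-MAC libraries. Macrophage markers summed to 809, 8412 and 27558 in the same libraries, and their part in the Fli1 values was not tested. Akt1 had an FPKM of 551 to 692 in MACs, 607 to 694 in RACVECs and 451 to 523 in LSECs. It was 848 to 1279 in Akt-MACs, 872 to 1280.5 in Akt-RACVECs, 798 to 1266 in Akt-LECs and 559 to 892 in Akt-liver ECs. Sox17-RACVECs, not labelled as given Akt1, had 884 to 1323, above every RACVEC library, and Akt-liver ECs overlapped MACs, so the Akt1 level did not separate the groups labelled as given Akt1. Sox17 was listed at 0 in all RACVEC libraries and had an FPKM of 5.09, 40.1 and 200.1 in Sox17-RACVECs. The log2 fold changes, shares and counts of Sox17-RACVECs are given with all 3 libraries and, where stated, without the library labelled Sox17-RACVEC 2. Over all genes, limma called 0 higher and 0 lower against Akt-RACVECs with it, and 111 and 229 without it, and 0 and 1 against RACVECs with it, and 6 and 3 without it. Of 7 endothelial markers, summed FPKM was 12.9 to 94.8 in MACs and 10871 to 14006 in LSECs. Akt-LEC 1 and Akt-liver EC 1 stood apart from the other cultured ECs in 8 mural cell markers, with summed FPKM of 1923 and 1528 against 15.6 to 92.8 in the other 4 libraries. They also stood apart in 6 mesenchymal markers (2706 and 1397, against 21.9 to 393), 6 macrophage markers (1409 and 967, against 0 to 18.6) and 5 epithelial markers (175 and 1546, against 2.56 to 29.8).

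Notch receptors are transmembrane proteins that are cut when a ligand on a neighbouring cell pulls on them, and the freed intracellular part enters the nucleus and acts with the DNA-binding protein Rbpj. Ligands of the Delta-like and Jagged families have different effects on the same receptor, and genes of the Hes and Hey families, which encode transcriptional repressors, are common targets. In vessels, Dll4 and Notch1 restrain the formation of tip cells and take part in arterial fate, Notch4 is largely confined to endothelium, and Notch3 is the receptor of vascular smooth muscle cells and pericytes.

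The regulatory sequence at the start of 8 of the 10 genes was read from RefSeq (build GRCm38.p6, 250 bases before to 50 bases after the start), since Ets factors, which recognise a GGAA core, were the conversion factors. The promoters of Hey1 and Hes1 were not analysed here. Of the 8, 3 are printed 5′ to 3′ on the gene's strand, because Notch4 and Dll4 had the largest positive differences of RACVECs from MACs among the members, and Notch3 was the receptor that was high in MACs. Capitals mark GGAA and its reverse complement TTCC.
Notch4, chr17:34564045-34564344 (plus strand): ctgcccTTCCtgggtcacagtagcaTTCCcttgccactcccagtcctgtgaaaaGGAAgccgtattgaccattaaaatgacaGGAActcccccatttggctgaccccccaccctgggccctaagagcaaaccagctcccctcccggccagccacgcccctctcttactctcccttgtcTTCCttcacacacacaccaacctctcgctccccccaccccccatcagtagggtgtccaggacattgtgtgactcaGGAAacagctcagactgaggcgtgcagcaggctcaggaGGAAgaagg
Dll4, chr2:119325534-119325833 (plus strand): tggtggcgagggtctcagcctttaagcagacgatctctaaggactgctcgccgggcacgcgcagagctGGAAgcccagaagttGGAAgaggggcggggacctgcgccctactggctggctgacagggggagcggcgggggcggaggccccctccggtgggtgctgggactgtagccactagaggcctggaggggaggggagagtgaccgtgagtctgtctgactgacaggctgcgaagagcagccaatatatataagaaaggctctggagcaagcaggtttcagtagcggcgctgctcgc
Notch3, chr17:32166841-32167140 (minus strand): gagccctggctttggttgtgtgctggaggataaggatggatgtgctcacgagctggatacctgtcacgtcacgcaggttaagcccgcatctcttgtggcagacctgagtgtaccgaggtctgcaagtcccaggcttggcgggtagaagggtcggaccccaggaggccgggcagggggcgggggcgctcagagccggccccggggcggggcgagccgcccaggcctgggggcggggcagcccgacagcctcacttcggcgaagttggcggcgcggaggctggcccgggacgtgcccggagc
The Notch4 promoter held 7 GGAA cores on either strand, Notch1 and Jag1 held 4 each, Notch2 held 3, Dll4 and Hey2 held 2 each, and Notch3 and Jag2 held 0. This tetramer was found in 96.0% of 32841 promoters of the same length, with a median of 3 per promoter, so its presence is common and its absence says only that these letters are not in this window. The longer CCGGAA was in none of the 8 promoters and in 14.9% of all, and CACGTG was in none of the 8 and in 7.15% of all. The Sox core ACAAT (or ATTGT) was present once in Notch4 and once in Jag1, and in 31.0% of all promoters. TGGGAA (or TTCCCA), the core bound by Rbpj, which contains the GGAA core, was present 2 times in Hey2, in 0 of the other 7, and in 25.6% of all. These matches describe the letters and are not evidence of binding.

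In the files' own build, mm9, Notch1 lies on chromosome 2 from 26313423 to 26372183, Notch3 on chromosome 17 from 32257765 to 32303825, Notch4 on chromosome 17 from 34701213 to 34725448, and Dll4 on chromosome 2 from 119151520 to 119161698. All 10 members are protein-coding genes, and FPKM covers the whole spliced transcript. In GENCODE M1 these 4 genes overlap lincRNAs (Notch1, Notch3 and Dll4) or a pseudogene (Notch4). Strand was not stated to be used in counting, so reads from the overlaps cannot be told apart. The other 6 members overlap no annotated gene.

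The members spanned a wide range of levels. The mean FPKM over 24 libraries was highest for Hes1 (227.0) and Notch1 (113), and lowest for Hey2 (0.431), which was listed at 0 in 17 libraries. Of the 10 members, 9 passed the filter of a mean FPKM of at least 1 and were tested. The test was limma on log2(FPKM + 1), fitted to all 14964 genes that passed, and a gene was called at a Benjamini-Hochberg adjusted p below 0.05 with a log2 fold change past 1 or -1. Log2 fold changes are on this scale and understate the change of low genes.

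**Figure D1:**
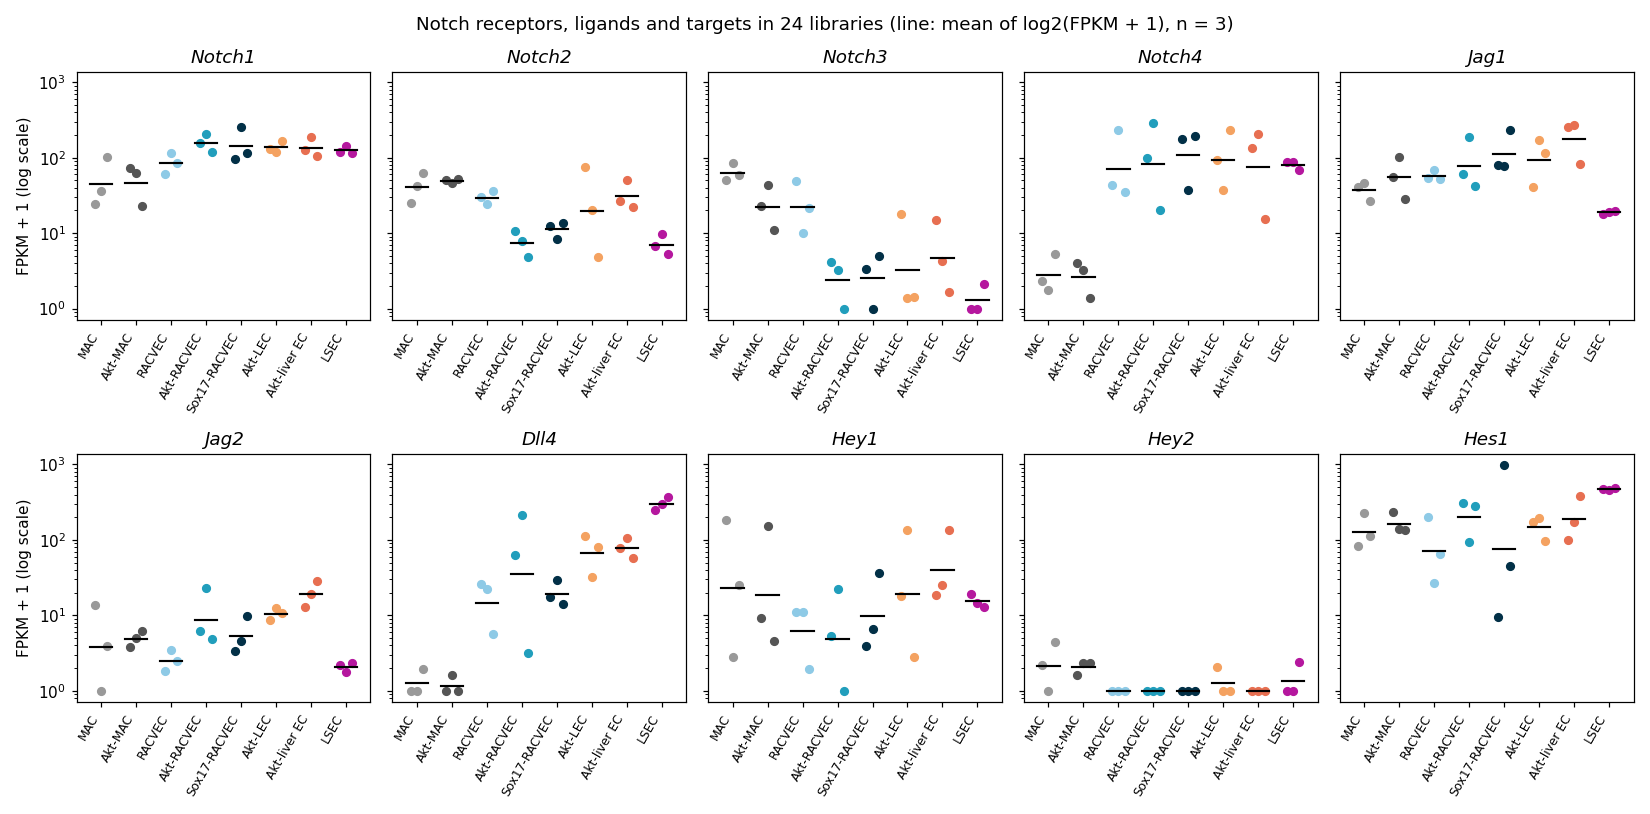
FPKM + 1 (log axis) of each gene in each of the 24 libraries, coloured by group, with a black line at the group mean of log2(FPKM + 1), n = 3. Every endothelial library lay above all MACs and Akt-MACs in Notch4 and Dll4, Notch3 was highest in MACs, and Hey1 and Hes1 spread widely within groups.

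Of the 9 tested members, 1 was called higher in RACVECs than in MACs (Notch4) and 0 lower, where 1.36% of all tested genes were called higher and 1.35% lower. The median log2 fold change of the 9 was -0.46, against 0 over all genes. RACVECs differ from MACs in the Ets factors and in the culture used for conversion, with its medium, VEGF-A and TGFβ inhibitor. These cannot be told apart. For the cultured ECs (Akt-LECs with Akt-liver ECs, each weighted equally) against MACs, 5 members were called higher (Dll4, Notch4, Jag2, Jag1 and Notch1) and 1 lower (Notch3), with 7.30% and 7.51% of all genes and a median of 1.60 against 0.03. Cultured ECs differ from MACs in cell source, Akt1 and medium together, and these cannot be told apart. The same holds for cell source and Akt1 in RACVECs against Akt-LECs. In Akt-RACVECs against Akt-MACs, 3 were called higher (Dll4, Notch4 and Notch1) and 2 lower (Notch2 and Notch3), with 6.15% and 13.4% of all genes and a median of 0.52 against -0.09. Akt-liver ECs exceeded LSECs in 3 members (Jag1, Jag2 and Notch2), and 0 were called lower, with 14.1% and 12.9% of all genes and a median of 1.39 against 0.08.

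Limma called 0 members in the remaining comparisons, several of which called few genes at all. A looser rule, an unadjusted p below 0.05 with the same fold limit, is given beside each. Akt-RACVECs against RACVECs had 0.261% of all genes called. By the looser rule 1 member was higher and 2 were lower, against 4.79% and 5.24% of genes. Sox17-RACVECs against RACVECs had 0.00668% called, and by the looser rule 0 members were higher and 2 lower, against 1.32% and 3.38% of genes. Without the library labelled Sox17-RACVEC 2 the counts were also 0 and 2 (Hes1 and Notch3), against 1.26% and 2.48%. RACVECs against Akt-LECs had 0.261% called, and by the looser rule 1 member was higher and 2 were lower, against 3.68% and 4.11% of genes. Akt-RACVECs against Akt-LECs had 0.00668% called, and by the looser rule 0 members were higher and 1 lower, against 1.66% and 2.51% of genes. For Akt-MACs against MACs, 2.81% were called and 0 members met the looser rule, which 9.72% of genes met. For Akt-LECs against Akt-liver ECs (0.0134% called) and Sox17-RACVECs against Akt-RACVECs (0% called) it was also 0 members, against 2.79% and 4.02% of genes. Without the library labelled Sox17-RACVEC 2 the last comparison had 0 members higher and 1 lower (Hes1), against 5.13% and 5.69% of genes. A p that misses the threshold in these groups of 3 does not show that levels were alike. Comparisons with the same control group share those libraries and are not independent. The study calls its libraries isolates, and for MACs defines a replicate as a separately isolated culture. The p-values thus measure against the spread between isolates, pooled over all 8 groups and not that of the compared groups alone. In bulk libraries, fewer cells of a type and less RNA per cell cannot be told apart, for any gene below.

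Members whose libraries did not overlap between groups were counted in the same way. From MACs to RACVECs, Notch4, Jag1 and Dll4 were higher in every library (3 of 9, against 11.4% of all genes) and Notch3 lower (1 of 9, against 10.5%). From RACVECs to Akt-RACVECs, Notch1 and Jag2 were higher (2 of 9, against 10.6%) and Notch2 and Notch3 lower (2 of 9, against 9.15%). From RACVECs to Sox17-RACVECs, Jag1 was higher (1 of 9, against 4.05%) and Notch2 and Notch3 were lower (2 of 9, against 6.55%). The same members were counted without the library labelled Sox17-RACVEC 2, against 10.5% and 11.6% of genes. Akt-MACs lay below MACs in Notch3 (1 of 9, against 4.19%). Akt-RACVECs lay above Akt-MACs in 3 members, against 15.3% of genes, and below in 2, against 22.0%. RACVECs lay below Akt-LECs in Notch1, Jag2 and Dll4, against 7.68%, and Akt-LECs below Akt-liver ECs in Jag2, against 4.41%. Akt-liver ECs lay above LSECs in Notch2, Jag1 and Jag2, against 27.7%, and below in Dll4 and Hes1, against 24.9%. Cultured ECs lay above MACs in Notch1, Notch4 and Dll4, against 10.1%, and below in Notch3, against 8.27%.

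**Figure D2:**
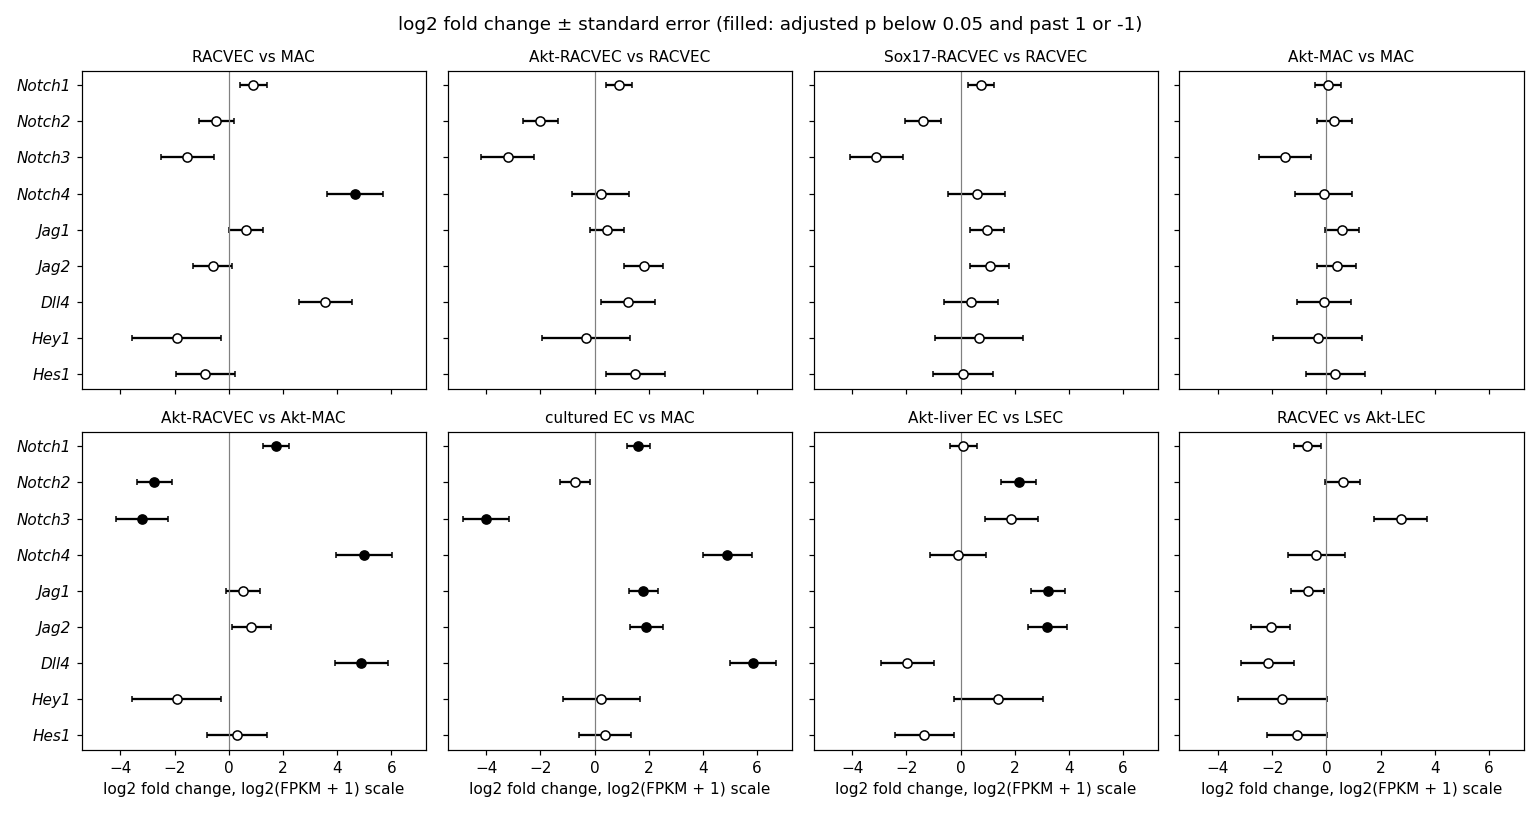
Log2 fold change of the 9 tested members in 8 comparisons (horizontal axis, log2(FPKM + 1) scale), with bars of 1 standard error; filled points passed the adjusted threshold. Notch4 and Dll4 lay far to the right in RACVECs and cultured ECs against MACs, and Notch3 lay to the left in Akt-RACVECs, Sox17-RACVECs and cultured ECs.

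Notch1, the receptor of most endothelial Notch signalling, was present in every library. Its FPKM was 23.5, 35.2 and 101 in MACs, 71.7, 61.2 and 21.7 in Akt-MACs and 59.1, 115 and 84.4 in RACVECs. It was 156, 207 and 118 in Akt-RACVECs and 94.1, 253 and 115 in Sox17-RACVECs. MACs and RACVECs overlapped, whereas every Akt-RACVEC library was above every RACVEC and Akt-MAC library. In Akt-LECs it was 129, 117 and 168, in Akt-liver ECs 126, 186 and 103 and in LSECs 118, 144 and 115, so the highest mean was that of Akt-RACVECs at 160.3 ± 44.6 (SD, n = 3), and each group overlapped its neighbour in the order of means. Notch1 was called higher in Akt-RACVECs than in Akt-MACs (log2 fold change 1.75, standard error 0.49, adjusted p = 0.0160). It was also called higher in cultured ECs than in MACs (log2 fold change 1.60, standard error 0.42, adjusted p = 0.0135). The first call was lost without Akt-MAC 3 (adjusted p = 0.0864) or Akt-RACVEC 2 (0.0658), and the second without MAC 1 (0.107) or MAC 2 (0.0531).

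Notch2, a broadly expressed receptor, ran the other way. The 3 libraries held an FPKM of 24.1, 41.8 and 61.9 in MACs, 49.6, 45.4 and 50.7 in Akt-MACs and 28.8, 23.3 and 34.9 in RACVECs. They held 9.72, 6.75 and 3.87 in Akt-RACVECs, 11.6, 7.44 and 12.7 in Sox17-RACVECs and 5.80, 8.78 and 4.22 in LSECs. All Akt-RACVEC and Sox17-RACVEC libraries lay below all RACVEC libraries. Notch2 was called lower in Akt-RACVECs than in Akt-MACs (log2 fold change -2.74, standard error 0.65, adjusted p = 0.00633). Against RACVECs the log2 fold change was -2.0 in Akt-RACVECs (standard error 0.65, adjusted p = 0.140) and -1.39 in Sox17-RACVECs (standard error 0.65, adjusted p = 0.741), and neither passed. Notch2 moved with markers of other cell types, with a Pearson correlation over 24 libraries of 0.683 with the summed mesenchymal, 0.642 with the mural and -0.64 with the endothelial markers. The mesenchymal sum was 2315 to 4915 in RACVECs, 0.31 to 115 in Akt-RACVECs and 4.93 to 351 in Sox17-RACVECs, and its part in the Notch2 differences was not tested. Without the library labelled Sox17-RACVEC 2 the Sox17-RACVEC value was -1.17 (adjusted p = 0.924). The contrast of the Akt effect in RACVECs with that in MACs, a test of the difference itself, gave -2.28 for Notch2 (standard error 0.92, adjusted p = 0.308). Limma called 0 members in it, against 0.00668% of genes called higher and 0.0936% lower. By the looser rule 0 members were higher and 1 lower, against 462 and 1054 of 14964 genes.

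Among mature ECs, Notch2 was uneven in Akt-LECs, with an FPKM of 74.01, 19.3 and 3.90, and was 25.5, 49.4 and 21.4 in Akt-liver ECs. Akt-LEC 1 was the highest of the 24 libraries. Every Akt-liver EC library exceeded every LSEC library, and the call was of higher Notch2 in Akt-liver ECs (log2 fold change 2.14, standard error 0.65, adjusted p = 0.0156). That call was lost without Akt-liver EC 2 (adjusted p = 0.0704) or LSEC 3 (0.0630). Akt-RACVECs differed from Akt-LECs by a log2 fold change of -1.40 (adjusted p = 0.558). Over 15 alternatives this value ran from -2.40 to -0.43, and 1 of them passed. The one that passed was without Akt-LEC 3 (-2.40, adjusted p = 0.0471), where 0.374% of genes were called lower. The value of -0.43 was without Akt-LEC 1.

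Notch3, the receptor of mural cells, had its highest levels in MACs. Its FPKM was 49.1, 84.5 and 58.2 in MACs, 21.6, 41.9 and 9.88 in Akt-MACs and 48.04, 9.14 and 20.3 in RACVECs. In Akt-RACVECs it was 3.17, 2.24 and 0, in Sox17-RACVECs 2.31, 0 and 4.04 and in LSECs 0, 0 and 1.13. The MAC libraries did not overlap those of any other group, although RACVEC 1 was close to the lowest of them, and all Akt-RACVEC and Sox17-RACVEC libraries lay below all RACVEC libraries. Notch3 was called lower in Akt-RACVECs than in Akt-MACs (log2 fold change -3.20, standard error 0.97, adjusted p = 0.0241), a call lost without Akt-MAC 1, Akt-MAC 2 or Akt-RACVEC 3 (adjusted p between 0.0545 and 0.106), or with a pseudocount of 0.1 (0.0563). It was not called in Akt-RACVECs against RACVECs (log2 fold change -3.20, standard error 0.97, adjusted p = 0.118) or in Sox17-RACVECs against RACVECs (log2 fold change -3.10, standard error 0.97, adjusted p = 0.480). Without the library labelled Sox17-RACVEC 2 the last value was -2.43 (adjusted p = 0.793).

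The cultured ECs held 2 libraries with Notch3 well above the rest. Its FPKM was 16.9, 0.38 and 0.44 for Akt-LECs and 13.97, 3.24 and 0.65 for Akt-liver ECs, the first library of each being the one with high mural, mesenchymal, macrophage and epithelial markers. Against MACs Notch3 was called lower in cultured ECs (log2 fold change -4.01, standard error 0.84, adjusted p = 0.00342), and the log2 fold change was -5.03 (adjusted p = 0.000120) without these libraries. RACVECs were above Akt-LECs, without a call (log2 fold change 2.74, standard error 0.97, adjusted p = 0.264), and the log2 fold change was 3.96 (adjusted p = 0.0356) without them, where 0.448% of all genes were called higher. Summed FPKM of the 8 mural markers was 2318 to 3427 in MACs, 1485 to 6581 in Akt-MACs, 227 to 1649 in RACVECs, 5.81 to 356 in Akt-RACVECs, 7.12 to 2057 in Sox17-RACVECs and 122 to 195 in LSECs. Of the 8, 4 (Acta2, Cnn1, Cspg4 and Tagln) were called lower in Akt-RACVECs than in Akt-MACs, 2 (Cspg4 and Rgs5) in cultured ECs than in MACs, and 0 in Akt-RACVECs or Sox17-RACVECs than in RACVECs by limma (3 and 0 at an unadjusted p below 0.05). Cspg4 was listed at 0 in all Akt-RACVEC, Sox17-RACVEC and LSEC libraries, and Des in all Sox17-RACVEC libraries. Summed FPKM of 6 mesenchymal markers was 1984 to 6162 in MACs, 1002 to 4068 in Akt-MACs, 2315 to 4915 in RACVECs and 0.31 to 115 in Akt-RACVECs. It was 4.93 to 351 in Sox17-RACVECs, 21.9 to 2706 in Akt-LECs, 111 to 1397 in Akt-liver ECs and 324 to 927 in LSECs. Against RACVECs, 1 of the 6 (Lum) was called lower in Akt-RACVECs and 0 in Sox17-RACVECs by limma, with 6 and 3 at an unadjusted p below 0.05. The counts of mural and mesenchymal markers at an unadjusted p set no fold limit. With that limit, 5.24% of all genes were lower in Akt-RACVECs than in RACVECs and 3.38% in Sox17-RACVECs. The part of such cells in the Notch3 levels was not tested.

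**Figure D3:**
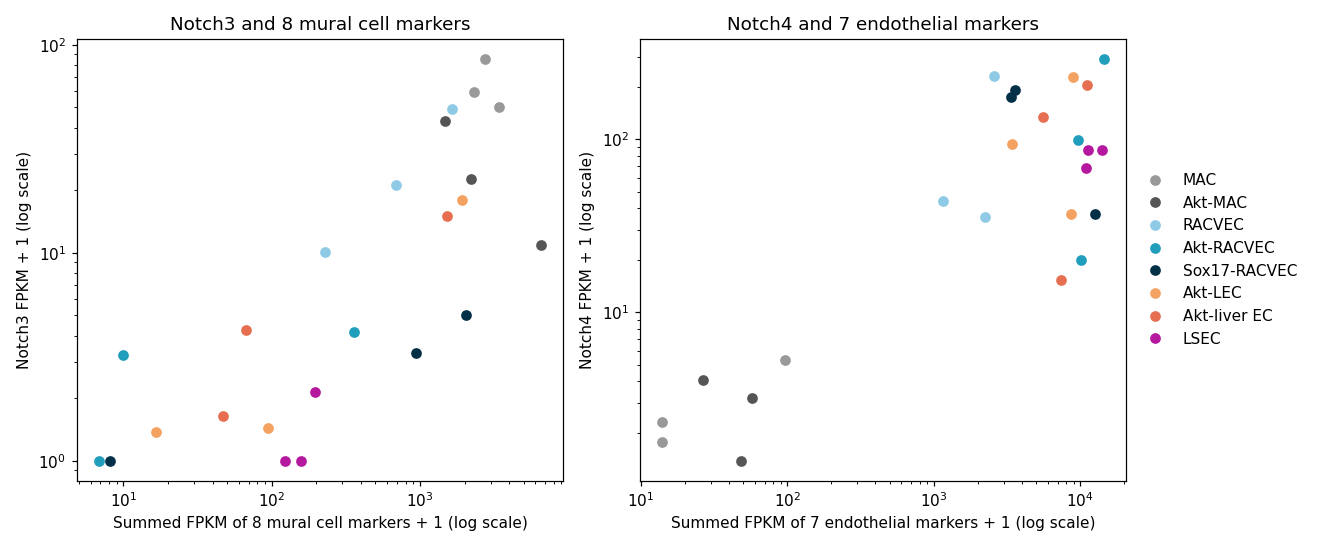
Left, Notch3 against the summed FPKM of 8 mural cell markers; right, Notch4 against that of 7 endothelial markers (FPKM + 1, log axes, 1 point per library coloured by group). Notch3 and the mural sum were both high in MACs, Sox17-RACVEC 1 and 3 had high mural sums with Notch3 at 2.31 and 4.04, and Notch4 separated MACs and Akt-MACs from all other groups.

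Notch4, the receptor largely confined to endothelium, was low in amniotic cells. Its FPKM was 1.33, 0.79 and 4.33 in MACs and 3.07, 2.20 and 0.39 in Akt-MACs, and 42.8, 232 and 34.6 in RACVECs. Every library of the 6 endothelial groups lay above every MAC and Akt-MAC library. Notch4 was called higher in RACVECs than in MACs (log2 fold change 4.66, standard error 1.04, adjusted p = 0.0183), in Akt-RACVECs than in Akt-MACs (log2 fold change 4.99, standard error 1.04, adjusted p = 0.00303) and in cultured ECs than in MACs (log2 fold change 4.90, standard error 0.90, adjusted p = 0.00140). The first of these was lost without MAC 1 (adjusted p = 0.0666) or RACVEC 2 (0.115), with log2 fold changes of 4.53 and 3.81, and its adjusted p ran from 0.0151 to 0.276 over all alternatives.

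Among endothelial groups Notch4 did not separate. It was 98.1, 291 and 19.01 in Akt-RACVECs and 175, 35.97 and 191 in Sox17-RACVECs. Akt-LECs held 92.9, 35.9 and 229, Akt-liver ECs 134, 206 and 14.5 and LSECs 85.95, 85.9 and 67.8. The spread within the cultured groups was wide, with Akt-RACVEC 2 the highest library and Akt-liver EC 3 the lowest, while the 3 LSEC libraries were close together. All neighbouring endothelial groups overlapped, and no comparison between them passed an unadjusted p of 0.05 for Notch4.

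The make-up of the receptor pool is given as each receptor's share of the summed FPKM of the 4, without a test. In MACs Notch3 held 42.7% ± 14.6 of it (SD, n = 3), Notch1 30.1% ± 12.7, Notch2 25.9% ± 1.48 and Notch4 1.26% ± 0.724. In RACVECs Notch4 held 35.0% ± 22.7 and Notch3 13.7% ± 12.3. Akt-RACVECs and LSECs were mainly Notch1 (61.0% ± 21.6 and 59.2% ± 2.60) and Notch4 (35.9% ± 22.0 and 37.7% ± 2.86). Sox17-RACVECs held 44.3% ± 27.9 of Notch4 and 51.5% ± 29.4 of Notch1. Without the library labelled Sox17-RACVEC 2 these became 60.4% and 34.5%, that library alone being 85.4% Notch1. The summed receptor FPKM was 162 ± 63.5 (SD, n = 3) in MACs, 305 ± 186 in Akt-RACVECs and 212 ± 25.6 in LSECs.

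**Figure D4:**
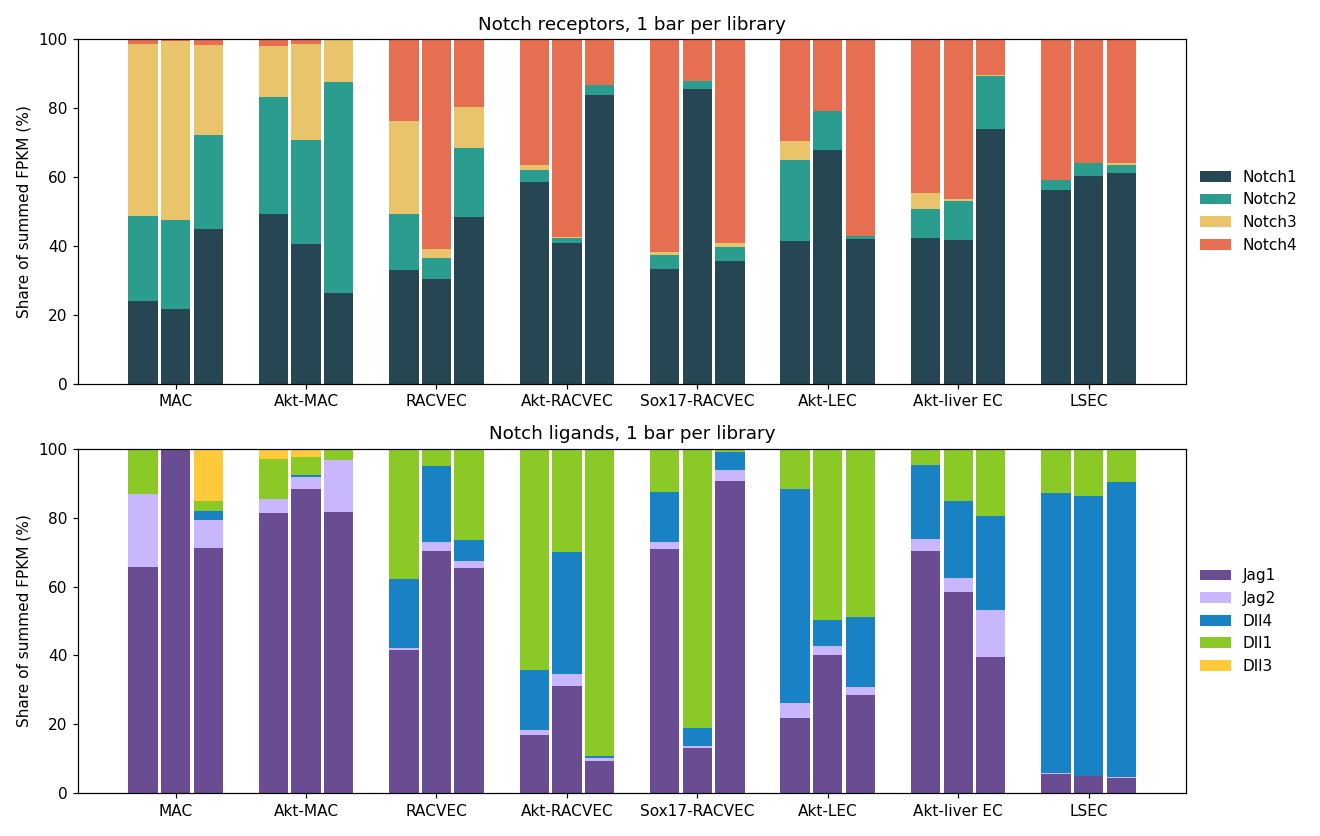
Share (%) of each gene in the summed FPKM of the 4 receptors (top) and of the 5 ligands Jag1, Jag2, Dll4, Dll1 and Dll3 (bottom), 1 bar per library. Notch3 held a large part of the receptor pool in MACs and little in LSECs, and Dll4 held over 80% of the ligand pool in all 3 LSEC libraries.

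Jag1, a ligand that in angiogenesis opposes Dll4, was present in all libraries. Its FPKM was 39.5, 45.8 and 25.6 in MACs, 54.7, 102 and 27.5 in Akt-MACs and 52.3, 67.3 and 50.5 in RACVECs. All RACVEC libraries were above all MAC libraries, but the difference was not called. Akt-RACVECs held 60.6, 186 and 41.04 and Sox17-RACVECs 79.4, 75.9 and 233. The cultured adult cells held 39.6, 171 and 114 (Akt-LECs) and 251, 272 and 80.9 (Akt-liver ECs), and LSECs only 17.2, 18.2 and 18.7. LSECs were the lowest group and did not overlap any other. Jag1 in Akt-liver ECs exceeded that of LSECs by the test (log2 fold change 3.22, standard error 0.62, adjusted p = 0.000650), as did that of cultured ECs against MACs (log2 fold change 1.80, standard error 0.54, adjusted p = 0.0259). The latter was lost without Akt-LEC 2, Akt-liver EC 2, MAC 1 or MAC 3 (adjusted p between 0.0509 and 0.105).

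Jag2, the second Jagged ligand, had the lowest mean FPKM of the 3 ligands. Its FPKM was 12.8, 0 and 2.92 in MACs, 2.85, 4.05 and 5.12 in Akt-MACs and 0.83, 2.50 and 1.49 in RACVECs. It was 5.16, 21.9 and 3.83 in Akt-RACVECs and 2.35, 3.54 and 8.73 in Sox17-RACVECs. The RACVEC libraries lay below every Akt-RACVEC library. Akt-LECs held 7.68, 11.4 and 9.79, Akt-liver ECs 12.04, 17.9 and 27.9 and LSECs 1.18, 0.78 and 1.37. Every Akt-liver EC library was above every Akt-LEC and LSEC library, and Jag2 was called higher than in LSECs (log2 fold change 3.20, standard error 0.71, adjusted p = 0.00207). It was called higher in cultured ECs than in MACs (log2 fold change 1.91, standard error 0.62, adjusted p = 0.0370), a call held by 8 of 17 alternatives and lost without any of 6 libraries, with a log2 fold change of 0.95 without MAC 2, where Jag2 was listed at 0. The increment of Akt-RACVECs over RACVECs (log2 fold change 1.80, standard error 0.71, adjusted p = 0.226) and the deficit of RACVECs against Akt-LECs (log2 fold change -2.06, standard error 0.71, adjusted p = 0.251) were not called.

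Dll4, the Delta-like ligand of arterial and tip cells, was close to 0 in the amniotic cells. It was listed at 0, 0 and 0.96 in MACs and 0, 0.63 and 0 in Akt-MACs. In RACVECs its FPKM was 25.04, 21.2 and 4.62, in Akt-RACVECs 61.4, 211 and 2.20 and in Sox17-RACVECs 16.4, 28.5 and 13.1. All converted libraries were above all MAC and Akt-MAC libraries, and Akt-RACVECs were spread the most, from 2.20 to 211. The difference between RACVECs and MACs did not pass (log2 fold change 3.57, standard error 0.98, adjusted p = 0.0579), although it did with a pseudocount of 0.1 (adjusted p = 0.0139). Dll4 was called higher in Akt-RACVECs than in Akt-MACs (log2 fold change 4.89, standard error 0.98, adjusted p = 0.00236). This call was lost in a limma fit of the compared groups alone (adjusted p = 0.121), and with the replicate number in that fit (0.162). The criterion of the study's methods did not call it either.

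In the adult cells Dll4 was 112, 31.5 and 79.8 for Akt-LECs, 76.6, 105 and 55.99 in Akt-liver ECs and 249, 297 and 368 in LSECs. LSECs were above every other library of the series, and cultured ECs were called higher than MACs (log2 fold change 5.84, standard error 0.85, adjusted p = 0.000177), under all 18 alternatives. Every RACVEC library lay below every Akt-LEC library (log2 fold change -2.17, standard error 0.98, adjusted p = 0.411), without passing. Akt-liver ECs were below LSECs with no overlap, but the shared fit did not call it (adjusted p = 0.133), whereas a fit of these groups alone did (log2 fold change -1.96, adjusted p = 0.00631). LSECs and Akt-liver ECs differ in culture and in Akt1 together, and these cannot be told apart. LSEC libraries also held hepatocyte (7 of 7 called, above Akt-liver ECs), macrophage (6 of 6) and red cell markers (3 of 3 tested). The summed FPKM of hepatocyte markers was 2580.4 to 15168 in LSECs and 32.1 to 68 in Akt-liver ECs, and none of the 3 lists had a marker at 0 in every LSEC library. Macrophage markers summed to 10427 to 17087 and 0 to 967, and red cell markers to 11348 to 12971 and 0.75 to 1.07. Their part in the Dll4, Jag1, Jag2 and Notch2 differences was not tested.

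Macrophage markers also differed between Akt-MACs and MACs, with summed FPKM of 809 to 27558 and 0.79 to 14.7, and 4 of 6 (Adgre1, C1qa, Csf1r and Lyz2) called higher in Akt-MACs. Their part in the Notch3 and Notch2 values of Akt-MACs, and in the contrast of Akt effects, was not tested. They differed too where Akt-RACVECs were set against Akt-MACs, with summed FPKM of 5.35 to 146 and 809 to 27558, and the same 4 called lower. Clec4f was listed at 0 in both groups and Vsig4 in all Akt-RACVEC libraries. Their part in the 5 member calls of that comparison was not tested.

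The ligand pool was described with Dll1 and Dll3, the remaining Delta-like ligands, added. In MACs Jag1 held 78.9% ± 18.5 and Dll4 0.889% ± 1.54 of the summed ligand FPKM. In LSECs the order was turned, with 82.6% ± 2.64 for Dll4 and 4.98% ± 0.627 for Jag1. Dll1 held 61.1% ± 29.8 in Akt-RACVECs, and Jag1 56.1% ± 15.6 in Akt-liver ECs. In Sox17-RACVECs Jag1 held 58.2% ± 40.1, or 80.7% without the library labelled Sox17-RACVEC 2, in which Dll1 held 81.1%. The summed ligand FPKM was 47.4 ± 12.2 (SD, n = 3) in MACs, 99.6 ± 24.6 in RACVECs, 464 ± 123 in Akt-RACVECs and 368 ± 61.8 in LSECs.

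Of the targets, the repressor Hey1 spread widely within groups. Its FPKM was 182, 1.78 and 24.2 in MACs, 8.11, 154 and 3.63 in Akt-MACs and 9.96, 9.93 and 0.94 in RACVECs. It was 4.33, 21.5 and 0 in Akt-RACVECs and 2.88, 5.61 and 35.9 in Sox17-RACVECs. In MACs, Akt-MACs and Sox17-RACVECs 1 library lay far above the other two. Akt-LECs held 17.2, 135 and 1.79, Akt-liver ECs 17.8, 24.3 and 136 and LSECs 18.1, 13.7 and 11.8, the narrowest range. All neighbours in the order of means overlapped, and Hey1 passed an unadjusted p of 0.05 in 0 comparisons. Hey2, a partner of Hey1 in arterial fate, never exceeded an FPKM of 3.43, and was listed at 0 in all RACVEC, Akt-RACVEC, Sox17-RACVEC and Akt-liver EC libraries. It was at 1.17, 0 and 3.43 in MACs and 0.60, 1.33 and 1.37 in Akt-MACs and was not tested.

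Hes1, a repressor induced by Notch in many tissues, was the most abundant member. Its FPKM was 81.7, 228 and 111 in MACs, 231, 137 and 132 in Akt-MACs and 201, 25.9 and 63.3 in RACVECs. Akt-RACVECs held 303, 93.4 and 277 and Sox17-RACVECs 8.56, 972 and 44.5. The library labelled Sox17-RACVEC 2 was the highest of all 24 and Sox17-RACVEC 1 the lowest. With library 2 in, Hes1 was not called in Sox17-RACVECs against Akt-RACVECs (adjusted p = 0.835), and without it Hes1 was called lower in Sox17-RACVECs (log2 fold change -3.26, adjusted p = 0.0351), where 1.53% of all genes were called lower. Hes1 was 173, 197 and 95.9 for Akt-LECs, 99.7, 171 and 381 in Akt-liver ECs and 476, 456 and 489 in LSECs. LSECs lay above all libraries of the other groups except the library labelled Sox17-RACVEC 2, yet Hes1 was not called against Akt-liver ECs (adjusted p = 0.371).

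Besides the members, 44 further genes of the pathway were listed by role (other ligands and targets, receptor processing and glycosylation, ligand endocytosis, the nuclear complex and attenuators), of which 42 were in the files and 38 were tested. In RACVECs against MACs 1 was called, higher, the target and feedback inhibitor Nrarp. Its FPKM was 28.8, 1.51 and 1.25 in MACs and 707, 324 and 478 in RACVECs, with no overlap (log2 fold change 6.44, standard error 0.95, adjusted p = 0.000895). The median log2 fold change of the 38 was -0.08, against 0 over all genes.

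In Akt-RACVECs against Akt-MACs 3 of the 38 were called higher and 4 lower, where 6.15% and 13.4% of all genes were (median -0.12, against -0.09 over all genes). The ligand Dll1 had an FPKM of 7.78, 6.09 and 1.13 in Akt-MACs and 229, 179 and 389.8 in Akt-RACVECs (log2 fold change 5.63, adjusted p = 0.00607). Nrarp (7.36, adjusted p = 7.70e-05) and the ubiquitin ligase Neurl1b (2.71, 0.0349) were also higher. Dner (-4.51, 0.0370), the γ-secretase subunit Psen2 (-2.04, 0.0233) and the ubiquitin ligases Mib2 (-1.53, 0.000691) and Neurl1a (-2.88, 0.0168) were lower. Psen2 was at 58.0, 142 and 371 in Akt-MACs 1, 2 and 3, where the macrophage markers summed to 809, 8412 and 27558. The part of macrophage markers in these calls was not tested. In cultured ECs against MACs 4 were called higher and 5 lower, against 7.30% and 7.51% of all genes (median 0.08, against 0.03). The higher were Nrarp (log2 fold change 5.04, adjusted p = 0.000536), Dll1 (4.51, 0.0108), the glycosyltransferase Mfng (3.96, 0.0396) and Neurl1b (2.92, 0.0137). The lower were Dlk1 (-5.91, 0.0130), Neurl1a (-2.32, 0.0275), Mib2 (-1.24, 0.00115), Rfng (-1.02, 0.0436) and the Notch inhibitor Numbl (-1.0, 0.0119).

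In Akt-liver ECs against LSECs 6 were called higher and 4 lower, where 14.1% and 12.9% of all genes were (median 0.27, against 0.08). The receptor convertase Furin had an FPKM of 269.8, 454 and 342 in Akt-liver ECs and 81.4, 84.2 and 73.97 in LSECs (log2 fold change 2.11, adjusted p = 9.57e-06). Numbl (1.86, 0.000114), Spen (1.80, 0.000824), Mib1 (1.06, 0.0283) and Maml1 (1.0, 0.0129) were among the others that were higher. Numb (-1.98, 0.000134), Kat2b (-1.76, 0.00207), Mib2 (-1.14, 0.00218) and Psenen (-1.07, 0.000167) were lower. The part of the hepatocyte, macrophage and red cell markers of LSECs in these calls was not tested. In the other 7 comparisons of groups limma called 0 of the 38. Between 2 and 7 had an unadjusted p below 0.05, in either direction and without the fold limit. The share of all genes by that rule was not counted, so these counts are not read further.

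Across the 24 libraries the members fell into patterns, given as Pearson correlations of log2(FPKM + 1), without a test, since the libraries share groups. Notch4 and Dll4 varied together (r = 0.822), as did Notch1 and Notch4 (0.790) and Notch2 and Notch3 (0.778), while Notch1 and Notch3 ran opposite (-0.645). Hes1 and Hey1 were nearly unrelated (0.049). In a search of 11699 genes with mean FPKM of 10 or more, those most like Notch4 were Robo4 (0.898), Cdh5 (0.891), which encodes VE-cadherin, and Sox18 (0.887). Closest to Notch1 was Bcl6b (0.932), to Dll4 Gimap4 (0.924), to Notch3 Vasn (0.961) and Dact3 (0.958), to Notch2 Golm2 (0.883), to Jag1 Bean1 (0.814), to Jag2 Tbc1d9 (0.828), to Hey1 Eva1a (0.798) and to Hes1 Tut4 (0.834). With the endothelial marker sum, Dll4 (0.864), Notch4 (0.856) and Notch1 (0.845) correlated positively and Notch3 (-0.809) negatively, and with the mural marker sum Notch3 (0.794) and Notch2 (0.642) correlated positively.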

How the data were processed

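RNA of 24 libraries (8 groups of 3) was sequenced as paired 51-base reads with an unstranded kit. The authors mapped reads to mm9 with TopHat and made the deposited FPKM values per RefSeq transcript with Cufflinks, using upper-quartile and sequence bias correction, which depends on each library's own high genes. Tool versions and read numbers are not given in the sources used here, so depth is unknown and no counting interval is given. Of 27583 transcripts, 649 had no current mouse symbol and were kept as entries of their own. The rest were summed by symbol, which gave 22282 entries in all, called genes here. Summed FPKM was 1689486 to 2317294 per library, with 12356 to 14985 genes above 0, and 0 pairs of libraries were identical. Limma 3.58.1 (R 4.3.3) was fitted once over 8 groups on log2(FPKM + 1), with a variance trend, two-sided, and p-values adjusted by Benjamini-Hochberg for 14964 genes whose mean FPKM reached 1. An exact permutation test of 3 against 3 libraries cannot go below p = 0.1 and was not used. Library medians differed by -0.20 to 0.13 (log2) from the mean of all. All members were named, and a log2 fold change is given where the unadjusted p was below 0.05 or an alternative made a call. Of other pathway genes those called were named, except 1 that is not reported here. Members and lists were chosen with earlier results of these data known. Groups follow the titles. File headers carry marks that the titles lack: MAC 3 and RACVEC 2 are marked as later, RACVEC 3 carries a culture day mark and GFP+, and Akt-liver EC 2 a passage mark, each too few to compare within.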

Additional observations from a re-analysis of the deposited data

How the results depend on the processing

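The 26 log2 fold changes of members with an unadjusted p below 0.05 were recomputed under 416 alternatives in all, of which 0 reversed the direction, 359 kept the side of the threshold, 51 lost a call and 6 gained one. The number of members called in RACVECs against MACs was 1, and became 2 with a pseudocount of 0.1, and 0 with a pseudocount of 10, with only these groups fitted, or by the unadjusted criterion of the study's methods (0 to 1 when 1 library was left out). In Akt-RACVECs against Akt-MACs it was 5, and 1 with only these groups and 3 by that criterion (Notch1, Notch2 and Hey2, the last not tested otherwise). In cultured ECs against MACs it was 6, and 2 with only these groups. In Akt-liver ECs against LSECs it was 3, and 1 by that criterion, which was Dll4. Dll4 was also called lower with a pseudocount of 10 (adjusted p = 0.0402). The same held with only these groups (0.00631), and with the replicate number in that fit (0.0355). Jag1, Jag2 and Notch2 kept their calls in these fits. This Dll4 result was not among the 26, so its gains are outside the 6. By the criterion of the methods, 1 member instead of 0 was called in Akt-RACVECs and in Sox17-RACVECs against RACVECs (Notch2 in each) and in RACVECs against Akt-LECs (Jag2). In the last the count was also 1 (Notch3) without Akt-LEC 1 and Akt-liver EC 1, an alternative chosen after seeing the data. Leaving out 1 library gave 0 to 1 in Sox17-RACVECs against Akt-RACVECs and 0 to 1 in Akt-RACVECs against Akt-LECs, with 0 before. The cause of these changes was not tested, beyond the fewer samples in a fit of the compared groups alone. Counts over all genes changed too. With only the compared groups, 30 genes were called higher and 11 lower in RACVECs against MACs (203 and 202 in the main fit). For Akt-RACVECs against Akt-MACs these were 400 and 613 (921 and 2003), and for cultured ECs against MACs 578 and 493 (1092 and 1124). A pseudocount of 10 gave 150 and 159 in RACVECs against MACs.

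With the replicate number as a replicate block the counts were 0 in RACVECs against MACs, 0 in Akt-RACVECs against Akt-MACs and 1 in cultured ECs against MACs. Not every same-numbered pair deviated together (in 0 of 10 comparisons was every correlation above 0.1, with a range from -0.489 to 0.571), although Akt-LECs and Akt-liver ECs did for numbers 1 (0.571) and 2 (0.366), so the numbers were not taken as pairs. The depth behind low FPKM values, such as those of Hey2 and Jag2, is unknown and limits what can be said of them.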

Other observations

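Genes of arterial and venous fate, which Notch signalling takes part in, were read beside the members. Of 7 arterial genes, 3 (Sox17, Gja4 and Gja5) were called higher and 1 (Nrp1) lower in cultured ECs than in MACs, and 4 (Gja4, Gja5, Nrp1 and Sox17) were called lower and 1 (Unc5b) higher when Akt-liver ECs were set against LSECs. Over all genes 7.30% were called higher and 7.51% lower in the first comparison, and 14.1% and 12.9% in the second. The first comparison pooled uneven libraries. Gja5 was at 5.26, 97.6 and 331 FPKM in Akt-LECs but 3.20, 0.69 and 0 in Akt-liver ECs, and at 0 in all MAC libraries. In Akt-LECs Gja4 was at 1.28, 206 and 10.8. Sox17 was at 24.5, 42.2 and 64.0 in Akt-LECs and 82.8, 1.49 and 5.61 in Akt-liver ECs. With RACVECs as the control, Sox17 passed as higher in Akt-RACVECs (log2 fold change 5.49, adjusted p = 0.0423), as it did in Akt-RACVECs set against Akt-MACs (5.05, 0.00425), and it passed as lower in RACVECs set against Akt-LECs (-5.38, 0.0486). The gap junction gene Gja4 was listed at 0 in all MAC libraries, at 2.05, 4.16 and 16.4 FPKM in Akt-liver ECs and at 492, 534 and 749 in LSECs (log2 fold change -6.49, standard error 1.16, adjusted p = 0.000321 by limma). The Netrin receptor gene Unc5b ran the other way, at 276, 1053 and 289 FPKM in Akt-liver ECs and 10.28 ± 2.01 (SD, n = 3) in LSECs (log2 fold change 5.30, adjusted p = 4.31e-05). Limma called 0 of the 7 in RACVECs against MACs (0 at an unadjusted p below 0.05).

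Of 4 venous genes, 3 (Ephb4, Nr2f2 and Aplnr) passed as higher when Akt-RACVECs were set against Akt-MACs, where 6.15% of all genes were called higher, and 2 (Ephb4 and Nrp2) in cultured ECs against MACs, with 7.30%. The receptor gene Ephb4 had 89.4, 46.4 and 29.7 FPKM in Akt-MACs and 770.1, 829 and 1478 in Akt-RACVECs (log2 fold change 4.27, standard error 0.68, adjusted p = 0.000436), and Nr2f2, a venous transcription factor, had 150.0, 69.7 and 16.5 and 523, 331 and 582 (log2 fold change 3.03, adjusted p = 0.00512). Aplnr was spread widely in Akt-RACVECs, at 275, 8.55 and 3056 FPKM, and stood at 0, 0 and 0.46 in Akt-MACs. In Sox17-RACVECs Ephb4 was at 143, 1054 and 157 FPKM, the highest value being that of the library labelled Sox17-RACVEC 2.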
